A study of Drosophila melanogaster with 6 samples.

Results

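IFT54, nompB and BBS8 are genes of ciliary transport that passed the threshold in a comparison of sorted Drosophila melanogaster larval brain cells with and without knockdown of domino (dom). They were chosen by symbol from the table of that comparison, which lists 3326 genes, so all 3 members had passed the threshold by choice and their ratios are given as a description. IFT54 and nompB were far lower in the knockdown and BBS8 was far higher.

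A cilium is built and maintained by intraflagellar transport, in which particles made of the IFT-A and IFT-B complexes are carried along the axoneme by kinesin-II towards the tip and by dynein-2 back to the base. The BBSome is an adaptor complex that rides on these particles and moves membrane proteins into and out of the cilium. In flies, cilia are known from type I sensory neurons, such as those of chordotonal organs and bristles, and from male germ cells, whose sperm flagella assemble without intraflagellar transport. Neuroblasts, the neural stem cells of the larval brain, carry centrosomes and are not known for cilia.

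RNA was sequenced from live, GFP-positive cells sorted from brains of wandering third-instar larvae. In the wild type group, females that carried insc::Gal4 together with UAS::CD8-GFP, and also UAS::Dcr-2, had been crossed to w1118 males. In the dom knockdown group the same females had been crossed to w1118; UAS::dom-RNAi males, so both groups carried Dicer-2, the insc::Gal4 driver and membrane-bound GFP, and the groups differed by the hairpin transgene against dom, the ATP-dependent remodeller of the Tip60 complex. The driver is active in neuroblasts and GFP persists in their progeny, so the sorted cells were a mixture. There were 3 libraries per group, and no label states if each sort used its own larvae, so the p-values may reflect technical spread alone. The values used were the authors' mean normalized count over all 6 libraries, their log2 ratio and its standard error (SE). The table holds no values per library and no read depth, so whether the libraries of the groups overlap was not examined.

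Ratios are given as knockdown over wild type, after turning the sign of the deposited column, which names the control first. With this sign dom had a log2 ratio of -0.58 in the authors' deposited table (SE 0.11), and w, which marks most fly transgenes, had 1.32 (SE 0.13). Both genes helped to settle the sign, so dom is no check of the sample labels. A header meant the other way round would swap every direction below. The listed genes were 28.0% of the 11859 genes behind the multiple-test adjustment, with 13.9% higher and 14.2% lower in the knockdown. Of 10 neuroblast markers 5 were listed, with mean normalized counts from 1934 to 15983 in the authors' deposited table, while dpn, ase, mira, insc and klu were not listed and their levels are unknown here.

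IFT54 (FBgn0038221, dm6 3R:14302428-14304458, plus strand, protein coding) encodes a subunit of the peripheral part of IFT-B whose vertebrate counterpart has a calponin homology domain that binds tubulin. The authors' deposited table gives it a mean normalized count of 449. In log2 terms its ratio was -4.22 (SE 0.31, 95% interval -4.83 to -3.62), and the authors' deposited table thus has IFT54 18.7 times lower under the knockdown, with a DESeq2 adjusted p of 4.44e-40. If that ratio is read as the ratio of the group means, the mean in the authors' deposited table corresponds to 852 normalized counts in wild type and 45.6 in the knockdown. Most of the signal behind the mean of IFT54 thus lay in wild type. It ranked 5 from the lowest ratio of the 3326 listed genes.

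nompB (FBgn0016919, 2L:21578292-21589423, minus strand, protein coding) encodes the fly IFT88, a tetratricopeptide repeat protein of the IFT-B core, and its mutants lose the mechanoreceptor potential of ciliated bristle neurons. Its mean normalized count was 138 in the authors' deposited table. The log2 ratio of nompB was -2.62 in the authors' deposited table (SE 0.34, 95% interval -3.28 to -1.95), which is 6.13 times lower in the knockdown, with a DESeq2 adjusted p of 4.66e-13. Read as group means, the authors' deposited table gives nompB 237 normalized counts in wild type and 38.6 in the knockdown. It ranked 22 from the lowest ratio among listed genes. The interval of nompB does not reach that of IFT54, although both moved the same way.

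BBS8 (FBgn0031255, 2L:422873-425321, plus strand, protein coding) encodes a tetratricopeptide repeat subunit of the BBSome, mutated in Bardet-Biedl syndrome in humans. Its mean normalized count was 278 in the authors' deposited table. The log2 ratio of BBS8 was 2.97 in the authors' deposited table (SE 0.24, 95% interval 2.49 to 3.45), which is 7.83-fold higher in the knockdown, with a DESeq2 adjusted p of 2.23e-31. Read as group means, the authors' deposited table gives BBS8 63.0 normalized counts in wild type and 493 in the knockdown. It ranked 131 from the highest ratio among listed genes.

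All 3 members had a mean normalized count between 100 and 500, a class of 507 listed genes. The median size of the log2 ratio in this class was 0.89 and the median SE was 0.21 in the authors' deposited table. The SE of each member was thus above that median, and each ratio was larger in size than that median. Genes at least 4-fold changed were 11.6% of the class and 10.6% of all listed genes. Such decreases were rarer than such increases: 1.38% of listed genes had a log2 ratio at or below -2, as IFT54 and nompB did, and 9.26% had one at or above 2, as BBS8 did. Because these ratios led to the choice of the members, nothing is read from their place in these distributions.

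**Figure D1:**
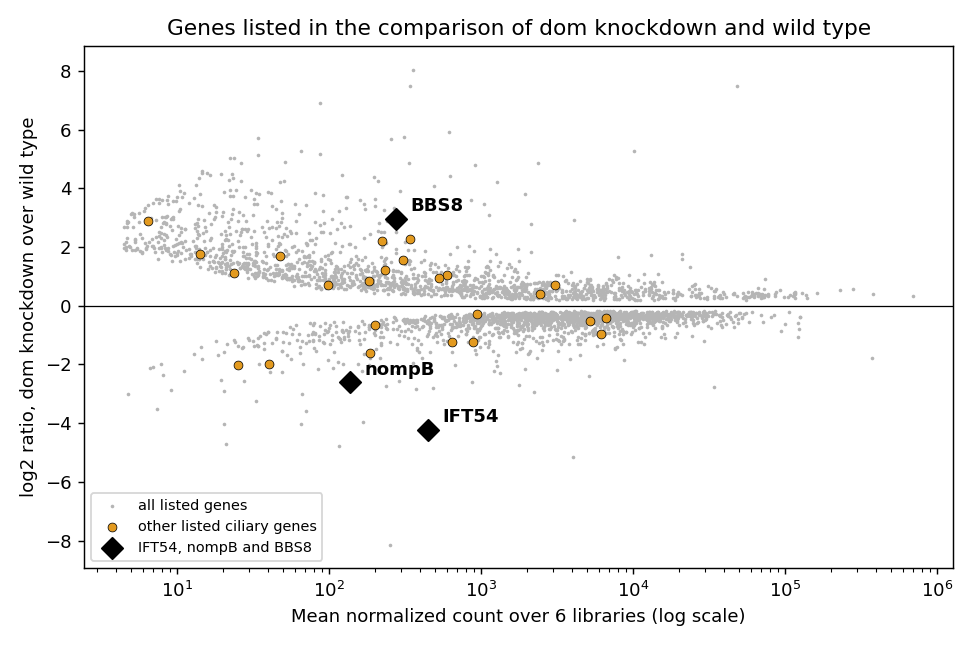
Log2 ratio (dom knockdown over wild type, vertical axis) against the mean normalized count over 6 libraries (horizontal log axis) for all 3326 listed genes (grey), listed genes of 8 ciliary lists (orange) and the 3 members (black diamonds). IFT54 (-4.22) and nompB (-2.62) lie below most genes of their abundance and BBS8 (2.97) lies above most of them, and the empty band around 0 reflects that genes that did not pass are not listed.

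Per kilobase of exon the order of abundance was IFT54, BBS8 and nompB. The mean normalized count per kilobase was 244 for IFT54, 123 for BBS8 and 49.3 for nompB, computed from the authors' deposited table, against a median of 612 over the 3264 listed genes with an annotated exon length. All 3 thus lay below the median of listed transcripts. These means pool both genotypes. On the group means given above, the order per kilobase within wild type differed, with nompB before BBS8, the member with the lowest level there.

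Among listed genes whose mean normalized count was 50 or more, the ratios nearest to that of IFT54 were those of CG31683 (log2 -4.02) and CG31636 (log2 -3.96) in the authors' deposited table, 0.21 and 0.26 away. MtnF, a metallothionein family gene, and CG12592 were nearest to nompB, at -2.59 and -2.58 in the authors' deposited table. The noncoding RNA gene lncRNA:CR32658 and CG8620 were nearest to BBS8, at 2.97 and 3.02 in the authors' deposited table. The ciliary lists hold none of these 6 genes. Likeness here means a small difference in 1 ratio only, with no profile over samples behind it.

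The members differ in their genomic setting. IFT54 and BBS8 are compact genes of 2031 and 2449 bp with 1 annotated transcript of 4 exons each. nompB spans 11132 bp with 8 exons, and 8 annotated transposable element insertions take up 3070 bp of its gene body, all outside its 2794 exon bases. The exons of nompB and BBS8 share no base with another annotated gene. IFT54 shares 4 of its 1843 exon bases with su(Hw) on the opposite strand, which was not listed. Exon bases that other genes could share were thus few or none in these 3 genes.

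Of the 14 annotated genes within 10 kb of a member, 3 were listed, against 28.0% of all tested genes. BBS8 had a neighbour that moved as it did: CG13692, 384 bp upstream on the same strand (2L:421771-422489), had a log2 ratio of 2.90 in the authors' deposited table (SE 0.20, mean normalized count 240, DESeq2 adjusted p 4.31e-44). CG11885, the next gene beyond CG13692 on that side, was not listed, and the ribosomal protein gene RpLP1, 2009 bp from BBS8, was at 0.40 in the authors' deposited table (SE 0.10). On the other side ex, 5906 bp away, was not listed. Ratios of the unlisted neighbours are unknown. The nearest protein-coding neighbour of nompB, Lamp1, at 1189 bp, was slightly lower at -0.29 in the authors' deposited table (SE 0.07). The pseudogenes CR42545 and CR42546, which flank nompB at 616 and 361 bp, were not listed. None of the 4 neighbours of IFT54 within 10 kb was listed, including red, which ends 152 bp before it. Within 25 kb the count was 8 of 27, near the 28.0% of all tested genes. Of these 8, 4 were higher and 4 lower. Afti, a vesicle trafficking gene 15733 bp from IFT54, was at -1.30 in the authors' deposited table (SE 0.13). Also near IFT54, NK7.1 was at -0.57 (SE 0.15) and Crz at 0.48 (SE 0.16) in the authors' deposited table. Near BBS8, CG4213, 20675 bp upstream, was at 1.37 (SE 0.44) and crq at -0.31 (SE 0.10) in the authors' deposited table.

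**Figure D2:**
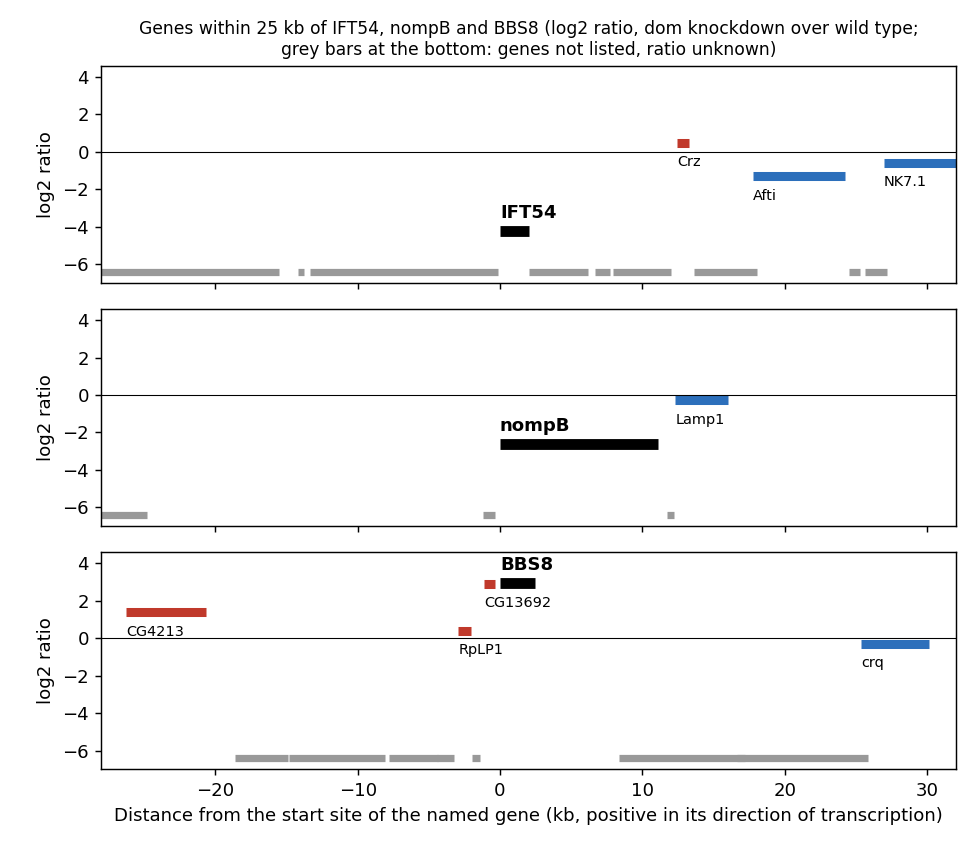
Log2 ratio (dom knockdown over wild type, vertical axis) of genes within 25 kb of IFT54, nompB and BBS8, drawn as bars over their length by distance in kb from the start site of the named gene; red genes were higher and blue genes lower in the knockdown, and grey bars at the bottom are genes not listed, with no known ratio. CG13692 at 2.90 sits beside BBS8 at 2.97, whereas IFT54 at -4.22 and nompB at -2.62 have no listed neighbour with a ratio of like size.

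Beyond the members, IFT-B genes changed in both directions. Of 10 IFT-B genes that could be matched, 7 were listed, 3 lower and 4 higher, against 28.0% of all tested genes. The names IFT74, IFT81, IFT56 and IFT22 could not be matched, so the status of these IFT-B genes is unknown. Without nompB and IFT54, which were chosen because they were listed, 5 of 8 were listed. Oseg2, the fly IFT172, was 4.63-fold higher, with a log2 ratio of 2.21 in the authors' deposited table (SE 0.21, DESeq2 adjusted p 1.99e-23). IFT52, a core subunit, was 4.78-fold higher, with a log2 ratio of 2.26 in the authors' deposited table (SE 0.24, DESeq2 adjusted p 1.71e-18). These 2 increases were of the size of the decrease in nompB.

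The other 3 listed IFT-B genes had mean normalized counts under 50. Cluap1, the counterpart of IFT38, had a log2 ratio of 1.69 (SE 0.41) at a mean normalized count of 47.5 in the authors' deposited table. IFT57 was lower, at -2.04 (SE 0.47) and a mean of 25.1 in the authors' deposited table. IFT20 was higher, at 1.11 (SE 0.44, DESeq2 adjusted p 0.0418) and a mean of 23.7 in the authors' deposited table, but 63.1% of its exon bases overlap CG10395, which was itself listed at 0.23, and reads of the overlap cannot be told apart if strand was not kept. Oseg5, the fly IFT80, IFT46 and Ttc30 were not listed.

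Of 5 IFT-A genes 3 were listed, 1 higher and 2 lower, against 28.0% of all tested genes. Oseg6, the counterpart of WDR19, was lower, with a log2 ratio of -1.23 (SE 0.16, DESeq2 adjusted p 5.12e-13) at a mean normalized count of 887 in the authors' deposited table. Oseg1, the fly IFT122, was at -0.29 (SE 0.09) and rempA, the fly IFT140, at 0.39 in the authors' deposited table (SE 0.10). Oseg1 and rempA share 16.4% and 11.1% of their exon bases with other genes. Oseg4 and IFT43 were not listed.

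BBS8 was the single listed gene of its complex: of 6 BBSome genes, including the recruiting GTPase gene Arl6, it was listed, and BBS1, BBS4, BBS5, BBS9 and Arl6 were not. Without BBS8, 0 of 5 were listed, against 28.0% of all tested genes. Absence from the list means failing the threshold or not being tested, so the data do not show that those 5 were unchanged. Over IFT-A, IFT-B and BBSome together, 11 of 21 genes were listed, and 8 of 18 without the 3 members, against 28.0% of all tested genes. Of the 11, 6 were higher and 5 lower, with a median log2 ratio of 0.39. Leaving out the 3 members, 6 of the 8 listed were at least 2-fold changed, against 29.9% of all listed genes. Of these 6, IFT57, IFT20 and Cluap1 had means under 100, where 87.9% of listed genes were at least 2-fold changed.

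**Figure D3:**
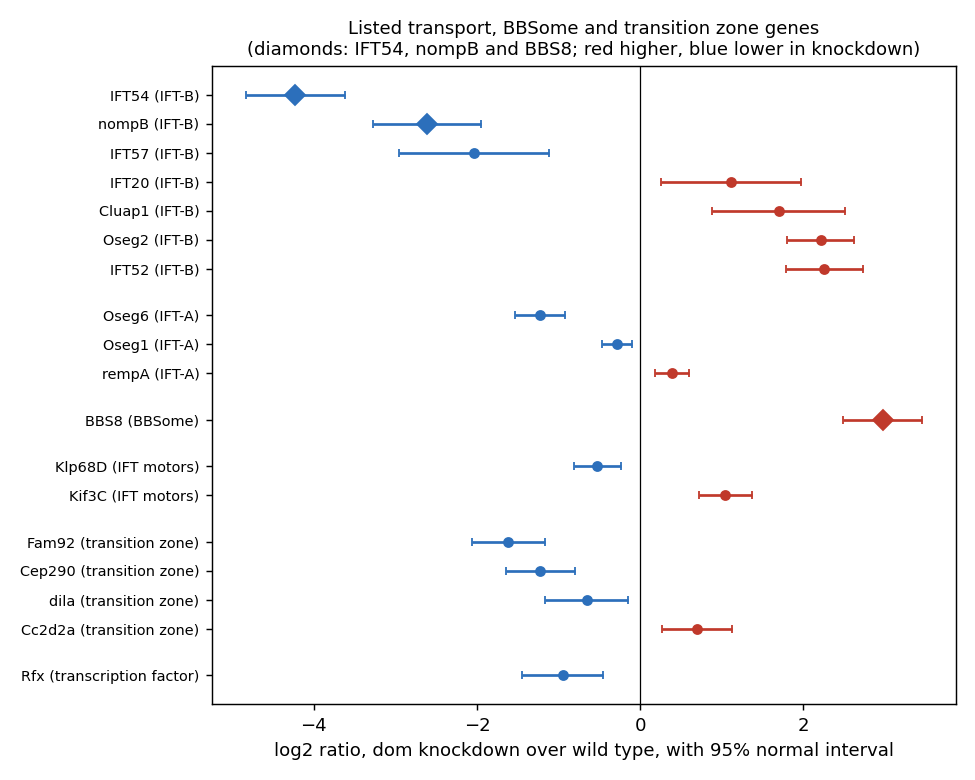
Log2 ratio (dom knockdown over wild type, horizontal axis) with 95% normal intervals from the authors' standard error for the listed genes of IFT-B, IFT-A, the BBSome, the transport motors, the transition zone and the ciliary transcription factors; diamonds mark the 3 members, red is higher and blue lower in the knockdown. IFT-B genes spread from -4.22 for IFT54 to 2.26 for IFT52, with members of the complex on both sides of 0.

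The motors of the transport particles were listed in part. Klp68D, a motor subunit of kinesin-II, was lower, at a log2 ratio of -0.52 in the authors' deposited table (SE 0.15, mean normalized count 5185), while its partners Klp64D and Kap3 and the dynein-2 heavy chain gene btv were not listed. Kif3C, a kinesin-II family gene on chromosome 4, was higher, at 1.04 in the authors' deposited table (SE 0.17). Listed motor genes numbered 2 of 6, near the 28.0% of all tested genes.

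Transition zone genes, which form the gate at the ciliary base, were listed in 4 of 9 cases, 3 lower and 1 higher, against 28.0% of all tested genes. Fam92, whose protein works with Cby at the gate, had a log2 ratio of -1.61 in the authors' deposited table (SE 0.23, DESeq2 adjusted p 7.79e-11). Cep290, a gate scaffold gene, was also lower, at -1.22 in the authors' deposited table (SE 0.22, DESeq2 adjusted p 4.00e-07). The decrease of dila was smaller, at -0.66 (SE 0.26), and Cc2d2a was higher at 0.70 in the authors' deposited table (SE 0.22). Mks1, B9d1, B9d2, tctn and Cby were not listed.

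Rfx, which encodes the transcription factor that binds the promoters of many ciliary genes in fly sensory neurons, was lower, with a log2 ratio of -0.95 (SE 0.25, DESeq2 adjusted p 0.00118) at a mean normalized count of 6189 in the authors' deposited table. IFT54 and nompB were thus lower together with Rfx, and Oseg2, IFT52 and BBS8 were higher where Rfx was lower. The forkhead factor gene fd3F, which acts with Rfx in chordotonal neurons, was not listed. Whether the change in Rfx has a part in the ratios of the members was not tested.

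Of 13 genes for axonemal dynein heavy chains and dynein assembly factors of motile axonemes, 7 were listed, against 28.0% of all tested genes. Of these 5 were higher and 2 lower, with means from 6.48 to 6681 in the authors' deposited table. Listed genes were higher in 85.6% of cases at means below 100 and 69.4% from 100 to 500. From 500 to 2000 the share was 44.5%, and at 2000 or more it was 28.4%. Zmynd10, an assembly factor gene, had a log2 ratio of 1.57 in the authors' deposited table (SE 0.18, DESeq2 adjusted p 1.22e-15). The heavy chain genes Dhc98D, Dhc62B and Dhc93AB were higher too, at 1.21, 0.96 and 0.83 in the authors' deposited table (SE 0.14 to 0.29). The Y-linked kl-3 was at 2.90 (SE 0.79), with a mean normalized count of only 6.48 in the authors' deposited table. On the lower side were dtr, whose human counterpart is the assembly factor gene DNAAF1, at -1.97 (SE 0.36), and Nop17l at -0.43 in the authors' deposited table (SE 0.08). The gene ktub, which encodes the tubby protein, was higher, at a log2 ratio of 0.70 in the authors' deposited table (SE 0.17).

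Of 15 genes of centrioles and centrosomes, which all dividing neuroblasts use, 0 were listed by the authors' DESeq2 test, against 28.0% of all tested genes. The 15 include Sas-4, Sas-6, asl, ana2, Plp, cnn and spd-2. Unadjusted p-values for these genes are not in the table, so their count at p below 0.05 and their ratios are unknown. Over the 8 ciliary lists, 27 of 55 genes were listed, 15 higher and 12 lower, and 24 of 52 without the members, against 28.0% of all tested genes. At an adjusted p below 0.001 in the authors' deposited table, 17 of the 55 passed, and 14 of 52 without the members, against 13.4% of all tested genes. Tested against a log2 ratio of size 1 from the authors' ratio and SE, Oseg2 and IFT52 passed besides the 3 members, which is 2 of 52 without the members, against 1.98% of all tested genes. No test was made of the difference between the ciliary and centriolar counts, and the lists differ in abundance in a way that cannot be measured for genes not listed.

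**Figure D4:**
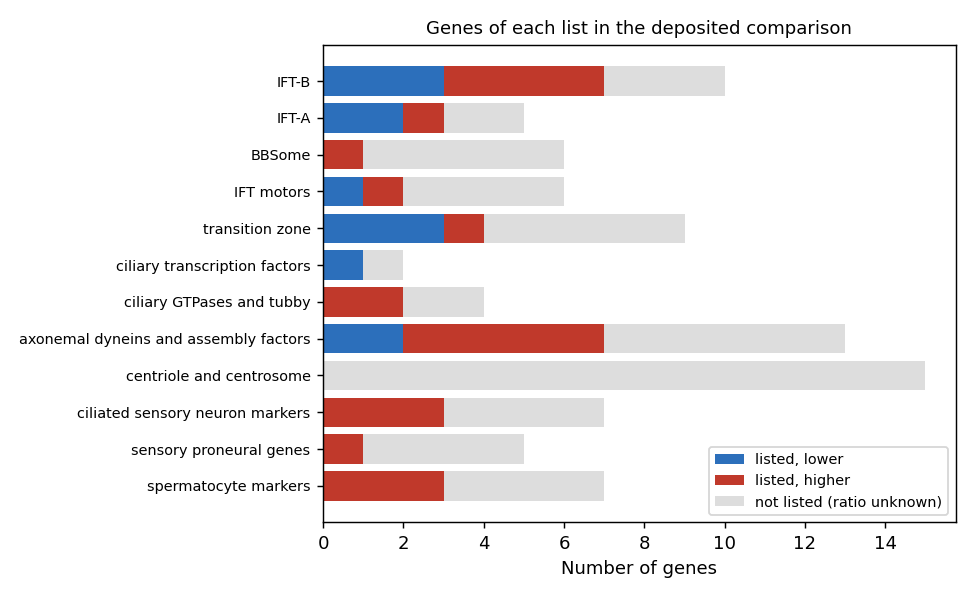
Number of genes (horizontal axis) in each of 12 lists that were listed as lower (blue) or higher (red) in the knockdown or were not listed (grey, ratio unknown). IFT-B has 7 of 10 matched genes listed with both directions present, the BBSome 1 of 6 and the centriole and centrosome list 0 of 15. Of all tested genes 28.0% were listed.

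Some genes tied to ciliated sense organs or to male germ cells were listed, most were not. Of 7 markers of ciliated sense organs 3 were listed, against 28.0% of all tested genes, and all 3 were higher. The mechanotransduction channel gene nompC had a log2 ratio of 2.54 in the authors' deposited table (SE 0.41). The microtubule-binding protein gene DCX-EMAP was at 1.37 (SE 0.21) in the authors' deposited table. There nompA, which links sensory dendrites to the cuticle, was at 0.84 (SE 0.27). Mean normalized counts of the 3 ran from 55.4 to 216 in the authors' deposited table, and iav, eys, Root and unc were not listed. Of 5 sensory proneural genes 1 was listed, against 28.0% of all tested genes. It was ato, which specifies chordotonal organs and photoreceptors. In the authors' deposited table ato was higher at 1.10 (SE 0.14), with a mean normalized count of 1081. The genes amos, ac, sc and cato were not listed. Of 7 spermatocyte genes 3 were listed, all higher, against 28.0% of all tested genes listed. In the authors' deposited table can was at 1.04 (SE 0.23), mia at 0.81 (SE 0.25) and topi at 1.36 (SE 0.37). Their means ran from 34.0 to 832. BBS8, Oseg2, IFT52, Cluap1 and IFT20 were higher as these 7 listed markers were, and IFT54, nompB and IFT57 were lower. A shared direction says little here, since most listed genes of low abundance were higher. The share was 85.6% at means below 100, 69.4% from 100 to 500 and 44.5% from 500 to 2000. The part of sense organ cells or male germ cells in the ratios was not tested.

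Markers of other cells of the brain moved as well. Of the 5 listed neuroblast markers, wor, sna, nab and E(spl)mgamma-HLH were higher and grh was lower, with log2 ratios from -0.79 to 0.76 in the authors' deposited table. Of 8 neuron markers 5 were listed, all lower, against 28.0% of all tested genes listed and 14.2% lower. The lowest log2 ratio was -2.71 for Rbp9, the only 1 of the 5 at least 2-fold changed. The others ran from -0.87 for fne to -0.54 for cpx in the authors' deposited table. Means of the 5 ran from 1780 to 93512 in the authors' deposited table. Of 6 glia markers 4 were listed, all higher (0.56 to 1.94), against 13.9% of all tested genes higher. Of 6 hemocyte markers 4 were listed, all lower (-4.77 to -0.80), against 14.2% lower. Means ran from 765 to 4267 for the glia and from 117 to 4843 for the hemocyte markers in the authors' deposited table. Listed genes were higher in 28.4% of cases at means of 2000 or more, 44.5% from 500 to 2000 and 69.4% from 100 to 500. In bulk RNA, fewer cells of a type and less RNA per cell cannot be told apart. The part of a changed mixture in the ratios of IFT54, nompB and BBS8 was not tested.

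Abundance also moved with direction. Listed genes were higher in 85.6% of cases at a mean normalized count below 100 and in 28.4% at 2000 or more. In the members' class, 100 to 500, 69.4% were higher. Of the 7 listed ciliary genes of that class other than the members, 5 were at least 2-fold changed, against 40.6% of all listed genes in the class. Below 100, 6 of 7 listed ciliary genes were at least 2-fold changed, near the 87.9% of that class. From 500 to 2000 it was 3 of 5, against 17.1%. Of the 5 listed ciliary genes at 2000 or more, 2 were higher and 3 lower. None was 2-fold changed, in a class where 5.50% of listed genes were.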

How the data were processed

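RNA from 6 libraries, 3 wild type and 3 dom knockdown by their titles, had been prepared with an Illumina TruSeq kit, per the labels' protocols, which do not state strand. DESeq2, HTSeq 0.6.1, SAMtools 0.1.19, STAR 2.3.0e and FastQC 0.11.2 are named beside genome build dm6, with no roles or settings, per the submitters' processing notes. Shrinkage of the ratios is not stated.

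The deposited table, in UTF-7, holds 1 comparison. Per the file headers, the authors gave a signal, namely the mean count after scaling by size factors, then a log2 ratio, its SE (a score), the Wald statistic, and p-values before and after adjustment. The adjusted p-values were all below 0.05, the largest 0.0499. Multiplying each by its rank and dividing by its p gave 11859 tests, within 0.01 in 2883 rows, and this step was tested on simulated data.

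Computed here with Python 3.11.15 and scipy 1.17.1 were 95% normal intervals, means per kilobase of union exon, levels per genotype under the assumption of 3 libraries each and an unshrunken ratio, and distances between genes. Positions, 1-based, came from Ensembl release 115, the same assembly as dm6. Symbols matched 3264 of 3326 IDs. Of 129 names in 16 gene lists 120 matched a gene. Names not matched stayed out of the counts, and 1 was a second name of rempA. The members and lists were chosen with earlier results of these data known, so no list was tested. Named genes were the members, listed genes of the ciliary, sensory and spermatocyte lists, listed genes within 10 kb of a member, the 2 nearest ratios per member at a mean of at least 50, and dom and w. Other markers were given as values. Afti, NK7.1, Crz, CG4213, crq and genes not listed were named after their values were seen. The values of 1 listed gene of these lists are not reported here, though it is in the counts.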

Additional observations from a re-analysis of the deposited data

How the results depend on the processing

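IFT54 and nompB stayed lower and BBS8 higher, past the threshold, at adjusted p below 0.01 and below 0.001, with genes under a mean normalized count of 50 left out, with all log2 ratios shifted by 0.1 either way, and against a log2 ratio of size 1 in place of 0. With their small adjusted p and means above 100, most of these settings could not have changed that, so this is no sign of stability. Over both shifts the ratios ran from -4.32 to -4.12 for IFT54, from -2.72 to -2.52 for nompB and from 2.87 to 3.07 for BBS8. Of the 27 listed ciliary genes, 17 passed at adjusted p below 0.001, 9 of them higher. Without the members 14 passed. Against a log2 ratio of size 1, 5 passed, namely IFT54 and nompB (2 lower) and BBS8, Oseg2 and IFT52 (3 higher), which are also the 5 of the 11 IFT and BBSome genes. Under both settings the test itself is stricter. Counts of listed ciliary genes stayed within 1.5 times under the other settings. Listed neighbours numbered 3 of 11 within 5 kb, 3 of 14 within 10 kb and 8 of 27 within 25 kb, against 28.0% of all tested genes. Shifts and thresholds can only remove genes, since those outside the table lack a ratio. No paired analysis was possible because the table holds no values per library, and for the same reason no replicate was left out. The search for the X-box, the Rfx motif, was not run, because no promoter sequence was used here. Read depth is unknown, and genes with means under 50, such as IFT57, IFT20 and Cluap1, have the widest intervals among the IFT-B genes.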
